A study of Mus musculus with 28 samples.

Results

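The earliest wild type kidneys of a mouse kidney series were compared with adult kidneys. The early samples were the 2 labelled wild type E12.5 and the 2 labelled wild type E13.5 (embryonic days), read as 1 group, and they were set against the 2 labelled adult, so 4 of the 14 samples of the series made up the early group. Each sample was hybridised to both arrays of an Affymetrix mouse pair, 430A and 430B. The early embryos were of the CD-1 strain, an outbred stock, and the labels say that embryonic kidneys were pooled. An adult sample was both kidneys of an adult mouse, with strain, sex and age not stated in the labels. Early RNA was isolated with a nanoscale column kit and 30 ng were amplified, whereas adult RNA was isolated with RNAzol and 100 ng were amplified. All RNA passed through 2 rounds of in vitro transcription. The stage difference therefore cannot be told apart from differences of strain, isolation method and RNA input. Sex may differ as well, since the labels do not give it for the adult mice. The rest of the series was 2 wild type samples of E16.5, prepared as the early ones, and 6 samples from embryos without the homeobox genes Hoxa11 and Hoxd11. Those 6 were not compared here. They entered the estimate of the spread, the limits set on low signals and the choice of the probe set that reads a gene. The series' design text calls the replicates of a stage separate embryos or animals.

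The mouse metanephric kidney starts when the ureteric bud grows into the metanephric mesenchyme. Mesenchyme around the bud tips, the cap mesenchyme, holds the progenitors of the nephrons, the bud branches to form the collecting ducts, and stromal cells lie between them. At E12.5 the bud has just begun to branch and tubules are not yet formed, whereas the adult kidney no longer makes nephrons and consists mostly of tubules, among them the proximal tubule, which takes back most of the filtered solutes. The comparison thus sets growing, largely undifferentiated tissue against a working organ. In whole tissue, fewer cells of a type and less RNA per cell cannot be told apart.

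Signals are MAS5 values, the brightness of a probe set on a linear scale after the authors' scaling, and they compare samples but not genes. Values under a floor of 86.1 (430A) or 148.1 (430B) were raised to it before log2 was taken, so a fold change is given as a lower bound ("at least") where any sample of the lower group lay under the floor, and such folds have no order among themselves. Differences are early minus adult on the log2 scale with the SE of the limma fit, n is 4 early and 2 adult samples, and a gene was called when the limma p adjusted by Benjamini-Hochberg was under 0.05. Median signal and share of probe sets at the floor were alike in both groups (430A median 384.0 to 437 in early and 393 and 401 in adult samples). The 3′ to 5′ actin signal ratio, a sign of RNA integrity and of shortening by amplification, was 3.12 to 4.13 in the early samples and 2.70 and 5.93 in the adult samples on 430A. The signal of the 18S ribosomal RNA probe set did move with the groups: 2248 to 4693 in the early samples against 23377 and 37128 in the adult samples on 430A, with the exact permutation p of 0.0667 being the smallest that 4 against 2 samples allow. Wild type E16.5 kidneys, prepared as the early ones, gave 25348 and 19648 there. A limma fit with the 18S signal as a covariate, chosen after seeing the data, called 2421 probe sets. Since this signal moved with the groups, that fit can hardly tell it apart from the group difference. A call lost there need not mean a smaller difference. Where that fit moved the count of a list by over 1.5 times, its count is given beside the list. For adult replicate 2 the run records of both arrays name the other array of the pair, and its values were used as labelled, with results without it beside those that turn on it. Its description also carries the number of replicate 1, whereas its title and source name replicate 2, so that the adult samples are separate animals rests on those labels and the design text.

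The early and adult kidneys differed over much of the genome. Of 30564 probe sets tested, 7154 were higher and 5145 lower in early kidneys, 40.2% in all. Read by 1 probe set a gene, 27.5% of 14128 genes were called higher and 21.6% lower, with 8.56% at least 4-fold higher and 9.17% at least 4-fold lower. These shares are the background for every count below, and the median log2 difference over all genes was 0.10. On 430A the log2 signals of 2 early samples correlated at 0.938 to 0.984 across probe sets and those of the 2 adult samples at 0.935, whereas an early and an adult sample correlated at 0.558 to 0.605. On 430B the groups were less distinct, with 0.797 to 0.916 for early pairs, 0.874 for the adult pair and 0.579 to 0.691 between groups. Early and E16.5 samples correlated there at 0.649 to 0.724, which overlaps early with adult. The lowest early pairs on 430B held E13.5 replicate 2. With 1 sample left out at a time between 9948 and 12091 probe sets were called, and 10376 without adult replicate 2.

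**Figure D1:**
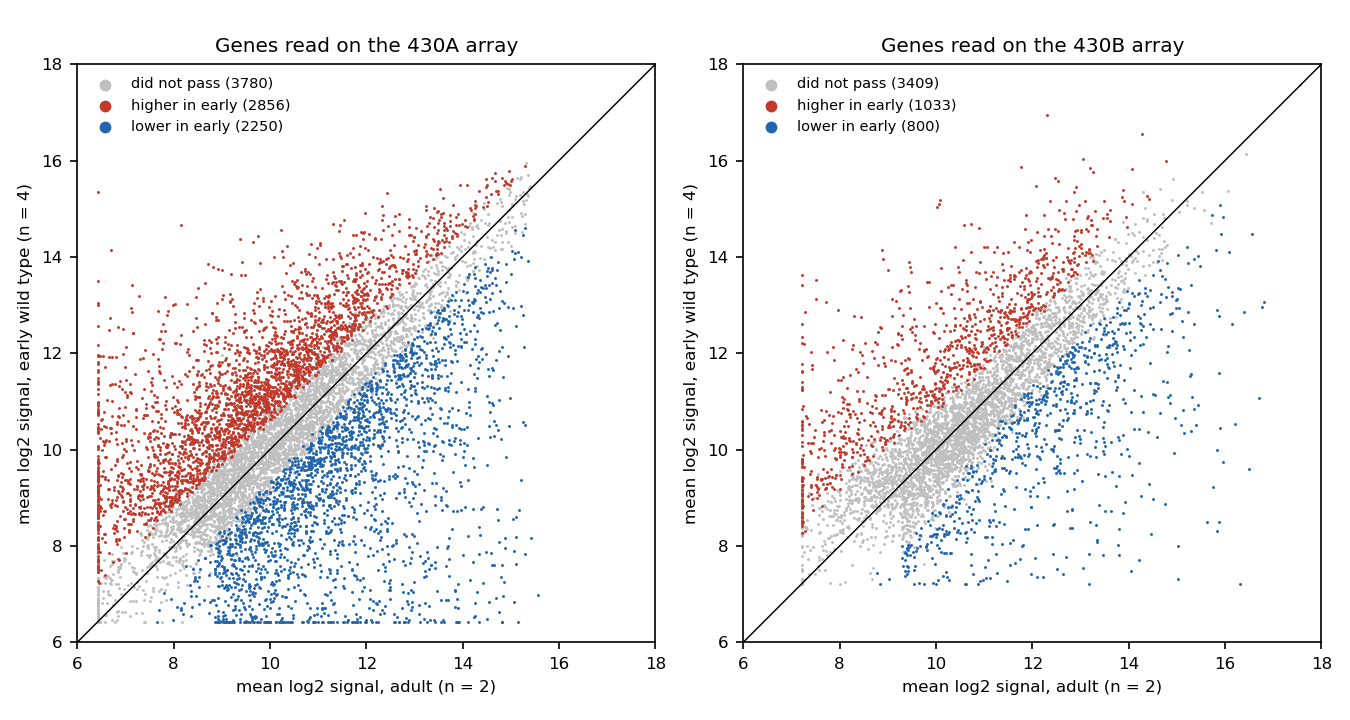
Mean log2 MAS5 signal of each gene in early wild type kidneys (vertical axis, 4 samples) against adult kidneys (horizontal axis, 2 samples), for genes read on 430A (left) and on 430B (right). Red genes were called higher and blue genes lower in early kidneys, grey genes did not pass, the line marks equal signal, and the rows of points at the lower and left edges are genes at the floor.

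The globins of the first red blood cells were among the largest increases. Hbb-y, a beta-like chain made only before birth, had signals of 31072 and 30596 in E12.5 kidneys and 49239.7 and 63433 in E13.5 kidneys, against 4 and 2.9 in adult kidneys. Both adult values lay under the floor, and Hbb-y was at least 482-fold higher (log2 difference 8.91 ± 0.28, adjusted p = 1.87e-10). Hba-x, the embryonic alpha-like chain, had 24251 and 25561 in E12.5 kidneys and 17448 and 9885 in E13.5 kidneys, against 84.3 and 124 in adult kidneys, at least 175-fold higher (7.45 ± 0.35, adjusted p = 2.01e-09). Hbb-bh1, another embryonic beta-like chain, had 16318 and 20245 in E12.5 kidneys and 6396 and 2380.3 in E13.5 kidneys, against 7.5 and 10.1 in adult kidneys. It was at least 97.8-fold higher, and its E13.5 values were both below its E12.5 values. At E16.5, Hba-x was at 469 and 546 and Hbb-bh1 at 78 and 295, whereas Hbb-y still gave 13787 and 17454. These 3 were the only called genes among 10 tested globin and erythroid genes (median log2 difference 0.48). The adult beta chain Hbb-b2 had 1113 and 777 in E12.5 kidneys and 1937 and 179.9 in E13.5 kidneys, against 1029.7 and 1229 in adult kidneys, groups that overlap, and Alas2, the erythroid enzyme of haem synthesis, had 5368 and 5100.3 in E12.5 kidneys and 5276 and 2618 in E13.5 kidneys, against 1983 and 3959.9 in adult kidneys, which overlap too. Hba-a1 did not pass the filter on low values.

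The promoters of the leading 2 globin genes are shown because these genes had the 2 largest increases on the floored scale. The 150 bases before the start of each gene are given 5′ to 3′ on the gene's own strand from RefSeq (GRCm38.p6), with the letters CCAAT and CACCC, or their reverse complements, in capitals. Hbb-y lies at chr7:103853208-103853357 (minus strand) and Hba-x at chr11:32276450-32276599 (plus strand).
Hbb-y: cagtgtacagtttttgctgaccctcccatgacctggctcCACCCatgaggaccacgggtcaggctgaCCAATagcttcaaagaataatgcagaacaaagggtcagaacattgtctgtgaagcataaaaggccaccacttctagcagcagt
Hba-x: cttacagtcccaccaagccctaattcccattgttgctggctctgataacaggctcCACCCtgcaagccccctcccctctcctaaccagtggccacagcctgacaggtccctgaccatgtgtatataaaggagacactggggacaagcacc
The Hbb-y stretch holds both motifs and the Hba-x stretch holds CACCC alone. Over the 250 bases before the start of 27025 genes, CCAAT occurred on either strand in 34.5% and CACCC in 51.3%.

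Among the other genes with the largest increases were both cellular retinoic acid binding proteins. Crabp1 had signals of 9583 and 9771 in E12.5 kidneys and 7927 and 6073 in E13.5 kidneys, against 56.8 and 12.7 in adult kidneys, at least 95.2-fold higher (adjusted p = 2.96e-09). Crabp2 had 4886 to 7006 in the 4 early samples, was under the floor in both adult samples, and was at least 70.9-fold higher (adjusted p = 1.12e-09). Both adult values of each gene lay under the floor. Vcan, the proteoglycan versican of loose embryonic matrix, had 4999 to 8143 in the 4 early samples, against 72.9 and 122 in adult kidneys, at least 66.9-fold higher, and Fxyd6, a regulator of the sodium pump, had 4311 to 7336 in the 4 early samples, against 117 and 72.7 in adult kidneys, at least 57.1-fold higher. The cDNA genes 6330403K07Rik, AW551984 and BC055324 ranked among them with at least 134-fold, at least 85.4-fold and at least 74-fold higher signals. The 2 other tested probe sets of AW551984 were not called (log2 differences -0.50 and -0.10), so its rise rests on 1 probe set.

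Genes of DNA replication and of mitosis rose almost without exception. All 31 tested replication genes were called higher (median log2 difference 3.36), and 42 of 43 tested mitosis and spindle genes were (median 4.11), against the 27.5% of all genes. Cdk1, the kinase that drives entry into mitosis, had signals of 9301 and 10089.7 in E12.5 kidneys and 10872 and 13772 in E13.5 kidneys, against 227 and 52.7 in adult kidneys. The adult values were the lower ones, and the difference was 6.28 ± 0.30 (at least 77.9-fold higher, adjusted p = 2.56e-09). Kif2c, a kinesin that takes microtubules apart at centromeres, had 4571 to 11624 in the 4 early samples, against 225 and 19.1 in adult kidneys (at least 56.4-fold higher). Cenpa, the histone of the centromere, had 5797 to 8612 in the 4 early samples, against 227 and 26.5 in adult kidneys (at least 52.7-fold), and Bub1b, a kinase-like protein of the spindle checkpoint, had 3081 to 4515 in the 4 early samples, against 51.9 and 42.1 in adult kidneys (at least 42.1-fold). The 2 other tested probe sets of Cenpa were not called (log2 differences -0.29 and -0.07). Outside the lists, Fbxo5, an inhibitor of the anaphase-promoting complex, and Trip13, a checkpoint ATPase, were at least 64.4-fold and 59.6-fold higher. Foxm1, a transcription factor of mitotic genes, was the 1 tested member that was not called, with 863 and 958 in E12.5 kidneys and 1079 and 904 in E13.5 kidneys, against 1516 and 1157 in adult kidneys.

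On the replication side Cdc6, which loads the replicative helicase, had signals of 3861 and 3295 in E12.5 kidneys and 4239 and 4589 in E13.5 kidneys, against 17.8 and 92.2 in adult kidneys (at least 44.5-fold higher, adjusted p = 6.63e-09). Rrm2, the regulated subunit of ribonucleotide reductase, had 12852 to 16944 in the 4 early samples, against 372 and 545 in adult kidneys (31.3-fold). Mcm5, a subunit of that helicase, had 5445 to 8567 in the 4 early samples, against 219.7 and 245 in adult kidneys (30.8-fold). Mcm3, another subunit, had 6745 to 9779.9 in the 4 early samples, against 355 and 269 in adult kidneys (27-fold). In each of these genes the early and adult samples did not overlap. At E16.5 the signals lay between the early and adult means for 28 of the 31 replication genes and for 31 of the 43 mitosis genes, and 28 and 41 of them were called higher at E16.5 than in adult kidneys, against 24.7% of all genes (22.3% were called lower).

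The promoters of 3 of these genes are shown because the members of the 2 lists rose together. RefSeq promoters were found for 62 of their 73 called members. CCAAT, the letters of the NF-Y box, occurred on either strand in the 250 bases before the start of 44 of the 62 (71.0%), against 34.5% of all genes. TTTGAA, the letters of the CHR element, occurred in 13 of 36 mitosis promoters (36.1%) and 4 of 26 replication promoters (15.4%), against 16.3% of all genes. GCGGGAA, a core of the E2F site, occurred in 8 of 26 replication promoters (30.8%) and 0 of 36 mitosis promoters, against 3.84% of all genes. These are counts of letters and not of bound sites. In the stretches below, again 150 bases before the start, capitals mark these 3 motifs on either strand, and no marked motif overlaps another. They lie at chr10:69352913-69353062 (minus strand) for Cdk1, chr5:30666736-30666885 (plus strand) for Cenpa and chr8:75109359-75109508 (plus strand) for Mcm5, and were picked from the genes named above after the motifs were counted.
Cdk1: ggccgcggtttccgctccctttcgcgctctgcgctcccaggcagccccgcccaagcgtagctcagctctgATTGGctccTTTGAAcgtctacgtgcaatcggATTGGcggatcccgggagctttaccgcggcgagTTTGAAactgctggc
Cenpa: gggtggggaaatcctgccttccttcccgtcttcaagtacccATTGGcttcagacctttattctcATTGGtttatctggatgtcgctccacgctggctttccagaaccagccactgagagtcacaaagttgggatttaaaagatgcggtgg
Mcm5: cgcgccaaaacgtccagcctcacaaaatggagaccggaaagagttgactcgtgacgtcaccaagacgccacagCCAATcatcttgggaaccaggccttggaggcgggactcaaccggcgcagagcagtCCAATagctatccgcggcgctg
Cdk1 held 2 copies of CCAAT and 2 of TTTGAA, and Cenpa and Mcm5 each held 2 copies of CCAAT.

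Genes of the nephron progenitors were mostly higher. Of 19 tested cap mesenchyme genes 15 were called higher and 0 lower (median log2 difference 2.15), with 9 higher under the 18S covariate. Gdnf, the ligand that draws out the ureteric bud, had signals of 3512 and 3069 in E12.5 kidneys and 2522 and 2143 in E13.5 kidneys, against 22.8 and 38.2 in adult kidneys, at least 32.1-fold higher (adjusted p = 1.11e-09). Eya1, a cofactor needed for the mesenchyme to form, had 22907 and 13607 in E12.5 kidneys and 9196 and 11927 in E13.5 kidneys, against 418 and 635 in adult kidneys, 26.4-fold higher. The other tested probe set of Eya1 was not called (log2 difference -0.38). The homeobox gene Meox2 had 1276 to 1754 in the 4 early samples, against 3 and 69.4 in adult kidneys. Uncx, another homeobox gene, had 823 to 1844 in the 4 early samples, against 17.7 and 17.2 in adult kidneys. Both adult values of Gdnf, Meox2 and Uncx were under the floor. Six2, the factor that keeps the progenitors undifferentiated, was chosen after its values were seen, as a known marker, and had 1434 and 1508 in E12.5 kidneys and 1197 and 1495 in E13.5 kidneys, against 378 and 360.0 in adult kidneys (3.8-fold higher, adjusted p = 3.86e-05). The adult values of Six2 were above the floor, and the groups did not overlap.

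For genes of the next steps the counts were near those of all genes. Of 18 tested genes of the early nephron 6 were called higher and 4 lower (median 0.39), beside 27.5% and 21.6% of all genes, and 3 and 2 under the 18S covariate. Wnt4, the signal that turns mesenchyme into epithelium, had 4029 and 3186 in E12.5 kidneys and 4531 and 3424 in E13.5 kidneys, against 291 and 55.7 in adult kidneys, at least 23.8-fold higher, and Hey1, a Notch target, had 2333 to 2891 in the 4 early samples, against 69.8 and 156 in adult kidneys, at least 22.2-fold higher. Sfrp2, a secreted Wnt modulator, was 6.9-fold higher. Irx3, a factor of the forming mid and distal nephron, had 549 and 451 in E12.5 kidneys and 816 and 823 in E13.5 kidneys, against 3353 and 2464 in adult kidneys, 4.5-fold lower (adjusted p = 5.23e-06), and Irx1, Irx2 and Pou3f3, which also act there, were the other 3 called lower. At E16.5 Irx3 had 2095 and 2255. Of the 18 genes, 11 were called lower in early than in E16.5 kidneys and 0 higher, against 13.8% of all genes lower.

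The ureteric tree divided between its tips and its trunk. Of 14 tested tip genes 8 were called higher and 0 lower (median 1.21), and of 21 trunk and collecting duct genes 1 was called higher and 14 lower (median -1.70). Under the 18S covariate 3 tip genes were higher, and of the trunk and duct genes 0 were higher and 7 lower. Moxd1, a monooxygenase-like gene, had 4663 and 4377 in E12.5 kidneys and 3316 and 3670.4 in E13.5 kidneys, against 15.2 and 10.5 in adult kidneys, at least 46.1-fold higher (adjusted p = 6.43e-10). Etv4, a transcription factor downstream of the Ret receptor, had 1629.6 and 1828 in E12.5 kidneys and 1976 and 822 in E13.5 kidneys, against 28.5 and 34.1 in adult kidneys, at least 17.2-fold higher, with the lowest early value in E13.5 replicate 2. Wnt11, a ligand of the tips, had 1824 to 1917 in the 4 early samples, against 295 and 211 in adult kidneys (7.41-fold), and Adamts18, a secreted protease, was 6.95-fold higher. Ret itself, the receptor for Gdnf, was not called, with 530.2 and 578 in E12.5 kidneys and 489 and 488 in E13.5 kidneys, against 325 and 384 in adult kidneys (adjusted p = 0.142). In the duct, the water channels Aqp2, Aqp3 and Aqp4 were all lower. Aqp2, the channel set by vasopressin, had 289 and 557 in E12.5 kidneys and 487 and 588 in E13.5 kidneys, against 13737 and 12131 in adult kidneys, 27.9-fold lower (-4.80 ± 0.31, adjusted p = 4.17e-08). Aqp3 and Aqp4, which let water out on the blood side, were 23.4-fold and at least 17.4-fold lower, and Muc1, an apical mucin, was at least 15.9-fold lower. The 1 duct gene called higher was the sialyltransferase St6gal1, with 4034 to 6708 in the 4 early samples, against 2391 and 1913 in adult kidneys.

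Stromal and matrix genes were mostly higher. Of 21 tested stromal genes 14 were called higher and 1 lower (median 1.31), and of 27 matrix genes 15 were called higher and 4 lower (median 1.03). Under the 18S covariate 6 stromal genes were higher and 0 lower, and 9 matrix genes were higher and 2 lower. Foxd1, the factor that marks stromal progenitors, had 5884 and 5343 in E12.5 kidneys and 3995 and 3213 in E13.5 kidneys, against 141 and 119.5 in adult kidneys, 34.6-fold higher (adjusted p = 8.78e-09). Ptn, the growth factor pleiotrophin, had 4610.4 to 6722 in the 4 early samples, against 156 and 99.1 in adult kidneys (46.4-fold). The transcription factors Nr2f1 and Meis1 were at least 21.3-fold and at least 15.1-fold higher, and Sfrp1, a secreted Wnt inhibitor, was the 1 called lower (3.52-fold). The 2 other tested probe sets of Meis1 were not called (log2 differences 0.14 and 0.43). In the matrix list the microfibril protein Mfap2 had 5895 to 12492 in the 4 early samples, against 123 and 417 in adult kidneys. Mfap4, of the same family, had 1918 to 4692 in the 4 early samples, against 13.9 and 14.7 in adult kidneys, and 35.2 and 45 at E16.5. Fbln1, a glycoprotein of elastic fibres and basement membranes, was 10.2-fold higher, while Fbln5, Bgn, Col14a1 and Col12a1 were the 4 called lower, with Fbln5, an elastic fibre protein, at 1023 to 1489.5 in the 4 early samples, against 4965 and 6556 in adult kidneys.

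Imprinted and oncofetal genes were higher. Of 16 tested imprinted genes 14 were called higher and 1 lower (median 3.10), and under the 18S covariate 6 were higher and 0 lower. Mest, which is read from the paternal copy, had 24531 and 22343 in E12.5 kidneys and 24858 and 32988 in E13.5 kidneys, against 297 and 276 in adult kidneys, 90.4-fold higher (6.50 ± 0.17, adjusted p = 4.65e-11). Slc38a4, an amino acid transporter, had 3127 to 3786 in the 4 early samples, against 98 and 92.1 in adult kidneys (35.4-fold), Peg3, a zinc finger protein, 14204 to 16908 in the 4 early samples, against 468 and 994 in adult kidneys (22.4-fold), and Ndn, the protein necdin, 14659 to 17224 in the 4 early samples, against 1463 and 1053 in adult kidneys (13.1-fold). Phlda2, a maternally read gene known to limit placental growth, was the 1 called lower, with 234 and 265 in E12.5 kidneys and 303 and 60.3 in E13.5 kidneys, against 1902 and 1129.9 in adult kidneys. Of 12 tested oncofetal genes 10 were called higher and 0 lower (median 3.04), with 6 higher under the 18S covariate. The RNA binding protein Igf2bp3 had 2258 to 2877 in the 4 early samples, against 35.5 and 14.5 in adult kidneys (at least 28.6-fold), the growth-limiting proteoglycan Gpc3 18461 to 24633 in the 4 early samples, against 681 and 949 in adult kidneys (25.2-fold), and the chromatin protein Hmga2 3146 to 7716 in the 4 early samples, against 209.6 and 206 in adult kidneys (24.1-fold). Afp, the fetal serum protein, varied within the early group, with 5914 and 90.3 in E12.5 kidneys and 4907 and 1441 in E13.5 kidneys, against 82 and 47.4 in adult kidneys. Its call (adjusted p = 0.0206) was lost without adult replicate 1 (0.144), without adult replicate 2 (0.140) and without E13.5 replicate 1 (0.0579). Alb, the serum albumin of liver, ran alongside it within the early samples, with 2472 and 264 in E12.5 kidneys and 1816 and 876 in E13.5 kidneys, against 2024 and 1071 in adult kidneys. The part of liver RNA in the Afp values was not tested.

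Chromatin, RNA processing and translation genes were called higher in larger shares than all genes. Of 28 tested chromatin and DNA methylation genes 25 were called higher and 1 lower (median 1.95), and under the 18S covariate 11 and 0. Hmgb2, a chromatin protein of dividing cells, had 2858 to 7857 in the 4 early samples, against 200.3 and 103 in adult kidneys (38.4-fold), Ezh2, the methyltransferase of the Polycomb complex, 7046 to 12113 in the 4 early samples, against 220.0 and 290.1 in adult kidneys (32.5-fold), Suv39h2, a methyltransferase of heterochromatin, 3004 to 4130.0 in the 4 early samples, against 202 and 69.8 in adult kidneys (at least 20.1-fold), and the helicase Hells 1431 to 1791 in the 4 early samples, against 68 and 93 in adult kidneys (at least 17.5-fold). Tet3, which oxidises methylcytosine, was the 1 called lower, with 229 and 146 in E12.5 kidneys and 321 and 284 in E13.5 kidneys, against 1154 and 378 in adult kidneys (adjusted p = 0.0376), and the call was lost without adult replicate 1 and without 3 of the early samples. Of 24 splicing and RNA binding genes 20 were called higher and 0 lower (median 1.91), 8 higher under the 18S covariate, with Syncrip, an RNA binding protein, 9.86-fold and the splicing factors Srsf3 and Srsf1 8.13-fold and 7.51-fold higher. Of 37 cytosolic ribosomal protein genes 28 were called higher and 0 lower, at a small median of 0.71, and 12 were called higher without adult replicate 2 and 5 under the 18S covariate. The largest of these was Rps25, with 8262 and 5273 in E12.5 kidneys and 6039 and 4601 in E13.5 kidneys, against 742 and 518 in adult kidneys. Of 22 tested Hox genes outside the deleted paralogues 11 were called higher and 1 lower (median 0.94), and 1 and 0 under the 18S covariate. Among the 11 called higher were Hoxd13 (6.26-fold), a gene of the hind end of the body, and Hoxc4, Hoxc9 and Hoxc5 (at least 5.68-fold, 4.95-fold and 3.07-fold). The 1 called lower was Hoxd8, with 2756 and 2050.1 in E12.5 kidneys and 2808 and 1488 in E13.5 kidneys, against 3688 and 4377 in adult kidneys, a call lost without adult replicate 2 or E12.5 replicate 2.

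**Figure D2:**
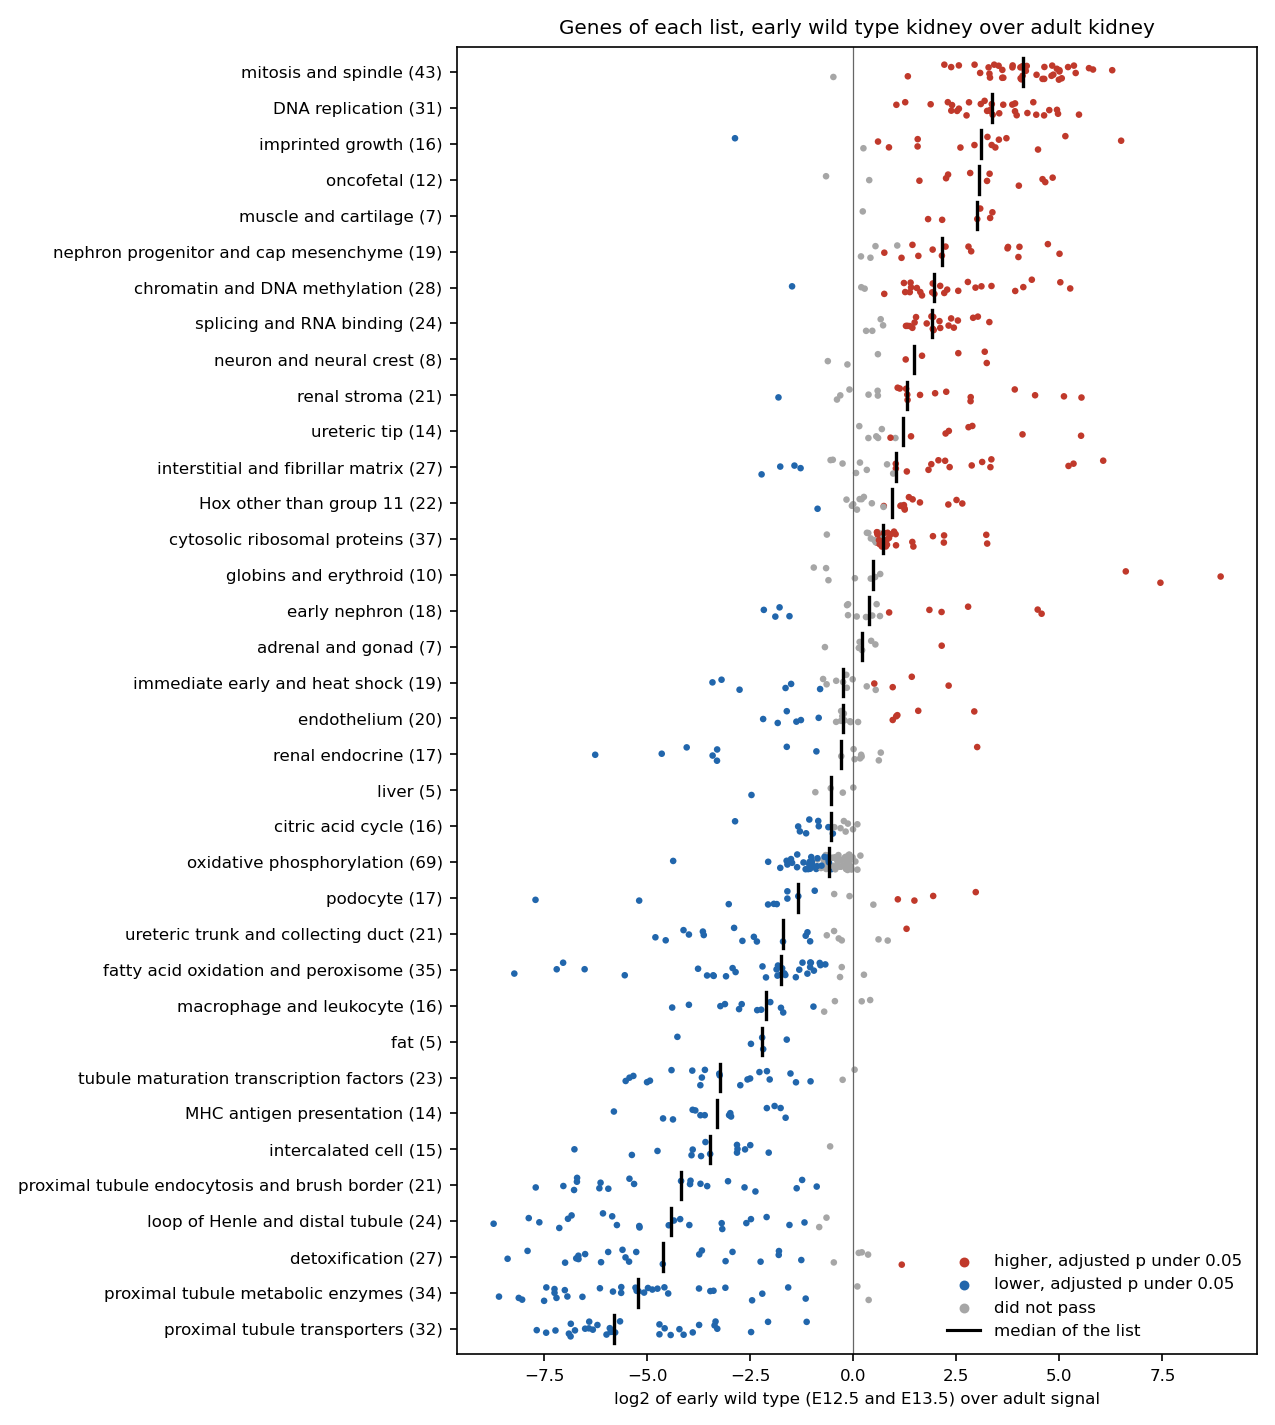
Log2 of early wild type over adult signal for each tested gene of 36 lists, with the number tested in brackets, sorted by the list median (black bar). Red points were called higher and blue points lower in early kidneys, and grey points did not pass. The medians run between 4.11 for mitosis and -5.82 for proximal tubule transporters.

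Genes of the proximal tubule were almost all lower. Of 21 tested genes of endocytosis and the brush border 21 were called lower, of 32 transporters 32, and of 34 metabolic enzymes 32, and 0 of the 87 were called higher, against 21.6% of all genes lower. The median log2 differences were -4.18, -5.82 and -5.23. For 1 of the transporters another probe set was called higher. The 2 enzymes not called were Ass1, of the urea cycle, with 1178 and 741 in E12.5 kidneys and 1025 and 1102 in E13.5 kidneys, against 827 and 715 in adult kidneys, and Akr1a1, an aldehyde reductase, with 32629 to 54349 in the 4 early samples, against 42708 and 35968 in adult kidneys.

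Cubn, the receptor cubilin that takes up filtered proteins, had 115 and 13.6 in E12.5 kidneys and at most 39.8 in E13.5 kidneys, against 17465 and 21358 in adult kidneys. It was at least 208-fold lower (-7.70 ± 0.38, adjusted p = 3.15e-09), with 3 of 4 early values under the floor. Its partner Lrp2, megalin, had 147 and 136 in E12.5 kidneys and 35.1 and 188 in E13.5 kidneys, against 11776 and 18287 in adult kidneys, at least 109-fold lower (adjusted p = 2.06e-08). Cdhr2, a cadherin that links microvilli, and Cltrn, collectrin, a chaperone of amino acid transporters, were at least 131-fold and at least 104-fold lower. At E16.5 Cubn had 1226 and 1212 and Lrp2 1711 and 1678, between the early and adult values.

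Among the transporters Slc34a1, the main phosphate carrier, had 185 and 142 in E12.5 kidneys and 205 and 262 in E13.5 kidneys, against 29959.8 and 28029 in adult kidneys, 150-fold lower (adjusted p = 3e-10). Slc34a3, the second phosphate carrier, had 394 to 1151 in the 4 early samples, against 97106 and 87823 in adult kidneys (119-fold lower). Slc13a3, a carrier of dicarboxylates, had 25 to 58 in the 4 early samples, against 18569 and 16771 in adult kidneys (at least 205-fold), and Slc3a1, a subunit of the cystine carrier, had 35.9 to 173 in the 4 early samples, against 19073 and 20148 in adult kidneys (at least 175-fold). Of the enzymes, Miox, which begins the breakdown of inositol, had 47.6 and 81.1 in E12.5 kidneys and 155 and 219 in E13.5 kidneys, against 59003 and 40133 in adult kidneys, at least 387-fold lower (adjusted p = 8.78e-10). Hao2, a peroxisomal hydroxyacid oxidase, had 20.4 and 13.6 in E12.5 kidneys and 104 and 125.3 in E13.5 kidneys, against 27576 and 27440.1 in adult kidneys, at least 277-fold lower (adjusted p = 2.58e-10), with both E13.5 values above the floor and both E12.5 values under it. Hgd, of tyrosine breakdown, was at least 262-fold lower, and Pck1, which commits carbon to glucose synthesis, was at least 181-fold lower, with all early values under the floor and adult values of 16274 and 14934.

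The promoters of 3 of these genes are shown as the stretches that hold letters of the liver and kidney factors HNF1 and HNF4. RefSeq promoters were found for 75 of the 85 called members of the 3 lists. GTTAAT, one side of the HNF1 site, occurred on either strand in the 250 bases before the start of 13 of the 75 (17.3%), against 6.52% of all genes, and CAAAGTC, a core of the HNF4 site, in 8 (10.7%), against 3.80%. Most of the 75 promoters held neither within this window, and nothing about either factor follows from that. Capitals mark the 2 motifs on either strand, without overlap, in the 150 bases before the starts of Slc34a1 at chr13:55399498-55399647 (plus strand), Hao2 at chr3:98893231-98893380 (minus strand) and Slc3a1 at chr17:85028197-85028346 (plus strand), which were picked for holding a match.
Slc34a1: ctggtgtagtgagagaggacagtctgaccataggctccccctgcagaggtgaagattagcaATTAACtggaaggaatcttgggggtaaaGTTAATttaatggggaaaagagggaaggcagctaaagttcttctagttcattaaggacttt
Hao2: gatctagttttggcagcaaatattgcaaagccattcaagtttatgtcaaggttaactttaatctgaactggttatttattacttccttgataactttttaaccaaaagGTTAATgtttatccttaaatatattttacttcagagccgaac
Slc3a1: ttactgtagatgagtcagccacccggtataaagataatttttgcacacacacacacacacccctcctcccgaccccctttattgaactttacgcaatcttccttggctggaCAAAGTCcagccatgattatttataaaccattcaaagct
Slc34a1 held 2 copies of GTTAAT, Hao2 held 1, and Slc3a1 held 1 copy of CAAAGTC.

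The later nephron segments were lower as well. Of 24 tested genes of the loop of Henle and distal tubule 22 were called lower and 0 higher (median -4.41). Umod, the urinary protein uromodulin of the thick ascending limb, had 78 and 126 in E12.5 kidneys and 148 and 149 in E13.5 kidneys, against 31569 and 26981 in adult kidneys, at least 234-fold lower (adjusted p = 2.63e-10). Klk1, tissue kallikrein, had 4.4 and 9.6 in E12.5 kidneys and 29.6 and 8.5 in E13.5 kidneys, against 40465 and 32815 in adult kidneys. All 4 early values were under the floor, and Klk1 was at least 423-fold lower (-8.73 ± 0.26, adjusted p = 9.95e-11). Fxyd2, a subunit that tunes the sodium pump, was 196-fold lower, and Slc12a3, the thiazide-sensitive salt carrier of the distal tubule, was at least 140-fold lower. Slc12a1, the salt carrier of the loop, had 149 and 152 in E12.5 kidneys and 239 and 264 in E13.5 kidneys, against 5901 and 18118 in adult kidneys, and with 9676 and 7769 at E16.5 it had reached the range of the adult samples. Of 15 intercalated cell genes 14 were called lower and 0 higher (median -3.47), 5 lower under the 18S covariate, among them the carbonic anhydrase Car15 (73 to 295 in the 4 early samples, against 16683 and 12942 in adult kidneys, at least 109-fold lower), the ammonia channel Rhbg (at least 41.4-fold), the anion exchanger Slc26a4, pendrin (26.9-fold), and Car12 (15.2-fold).

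Podocyte genes, of the filtering cells of the glomerulus, were called lower in a larger share than all genes. Of 17 tested podocyte genes 10 were called lower and 4 higher (median -1.33), beside 21.6% and 27.5% of all genes. Under the 18S covariate 4 were called lower and 1 higher. Col4a4, a collagen chain of the mature filter, had 143 and 66.1 in E12.5 kidneys and 109.5 and 193 in E13.5 kidneys, against 22880.0 and 47955 in adult kidneys, at least 209-fold lower (adjusted p = 1.58e-08), Clic5, a protein of foot processes, was 36.6-fold lower, and the phosphatase Ptpro had 126 to 181 in the 4 early samples, against 1264 and 1375 in adult kidneys (8.12-fold). The 4 called higher were the transcription factors Foxc2, Tcf21 and Dach1 and the adhesion molecule Kirrel. Foxc2, which acts early in podocytes and in mesenchyme, had 3984 and 4258 in E12.5 kidneys and 2385 and 2102 in E13.5 kidneys, against 395 and 379.7 in adult kidneys, 7.85-fold higher (adjusted p = 1.82e-07). Ptpro at E16.5 had 1649 and 1388, above both adult values.

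Transcription factors of mature tubules, detoxification genes and genes of fatty acid oxidation were lower too. Of 23 tested transcription factors 21 were called lower and 0 higher (median -3.24), with 10 lower under the 18S covariate. Hnf4a, a factor required for proximal tubule maturation, had 467 and 88.9 in E12.5 kidneys and 631 and 429 in E13.5 kidneys, against 13763 and 14301 in adult kidneys, 43.1-fold lower (adjusted p = 6.27e-07). Vdr, the vitamin D receptor, and Nr1h4, the bile acid receptor, were at least 40.4-fold and at least 32.1-fold lower. Klf9, a target of steroid hormones and the clock, had 163 and 82.5 in E12.5 kidneys and 196 and 177 in E13.5 kidneys, against 18668 and 2491 in adult kidneys, so the lower adult value, of adult replicate 2, was still above every early value. Ppargc1a, a coactivator for mitochondrial genes, was not called, with 36.6 and 41.1 in E12.5 kidneys and 99.2 and 199 in E13.5 kidneys, against 92 and 126 in adult kidneys, and E16.5 had 873 and 1294. Of 27 detoxification genes 22 were called lower and 1 higher (median -4.62), with 0 higher under the 18S covariate. Ugt3a2, a sugar-transferring enzyme, and the cytochromes Cyp2j5, Cyp2d26 and Cyp4a14 were at least 335-fold, at least 239-fold, at least 127-fold and at least 105-fold lower, and Cyp7b1, an oxysterol hydroxylase, was the 1 called higher, with 503 to 875 in the 4 early samples, against 199 and 361 in adult kidneys (adjusted p = 0.0338), a call lost without adult replicate 1 and without 3 of the early samples.

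Mitochondrial and peroxisomal genes fell in different measure. Of 35 tested genes of fatty acid oxidation 32 were called lower and 0 higher (median -1.76), with 13 lower under the 18S covariate. Slc27a2, which activates very long chain fatty acids, had 109 and 40.7 in E12.5 kidneys and 129 and 139.9 in E13.5 kidneys, against 34477 and 33699.9 in adult kidneys, at least 299-fold lower, and Ehhadh, a peroxisomal enzyme, Acsm2, which activates medium chain acids, and Acaa1b, a peroxisomal thiolase, were 146-fold, 132-fold and 91.6-fold lower. Of 69 oxidative phosphorylation genes 28 were called lower and 0 higher at a median of -0.59, only 2 of them at least 4-fold, and without adult replicate 1, whose values were the higher ones, 6 were called lower. Under the 18S covariate 1 was. Cox7a1, a muscle-type subunit of cytochrome oxidase, had 169 and 82.3 in E12.5 kidneys and 94.5 and 53.3 in E13.5 kidneys, against 3167 and 1465 in adult kidneys (at least 20.7-fold lower). Uqcr10, of complex III, and Ndufb10 and Ndufa6, of complex I, were 4.18-fold, 3.41-fold and 3.07-fold lower, and the calls of Uqcr10 and Ndufa6 were lost without adult replicate 1. Against E16.5 the direction differed: 20 of the 69 were called higher in early kidneys and 0 lower, against 14.6% of all genes higher. Of 16 citric acid cycle genes 9 were called lower and 0 higher (median -0.55), 1 lower under the 18S covariate, led by Ogdh, of the oxoglutarate dehydrogenase complex, with 813 to 1775 in the 4 early samples, against 10001 and 8891 in adult kidneys (7.3-fold).

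Other single genes among the 15 largest decreases on the floored scale had no list. Nceh1, a cholesterol ester hydrolase, had 124 and 76.8 in E12.5 kidneys and 91.8 and 92.1 in E13.5 kidneys, against 78987 and 84331 in adult kidneys, at least 551-fold lower (-9.11 ± 0.38, adjusted p = 8.67e-10). Rdh16f2, of the retinol dehydrogenase family, had 30.9 to 61.6 in the 4 early samples, against 31596 and 26592 in adult kidneys, and Aadat, an aminotransferase of lysine breakdown, 61.3 to 164.7 in the 4 early samples, against 24139.6 and 28870.1 in adult kidneys. Dnase1, the secreted deoxyribonuclease, had 15.8 to 172 in the 4 early samples, against 33178 and 17419 in adult kidneys, and Spink1, a trypsin inhibitor, 15.8 to 109 in the 4 early samples, against 22172 and 17293 in adult kidneys.

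**Figure D3:**
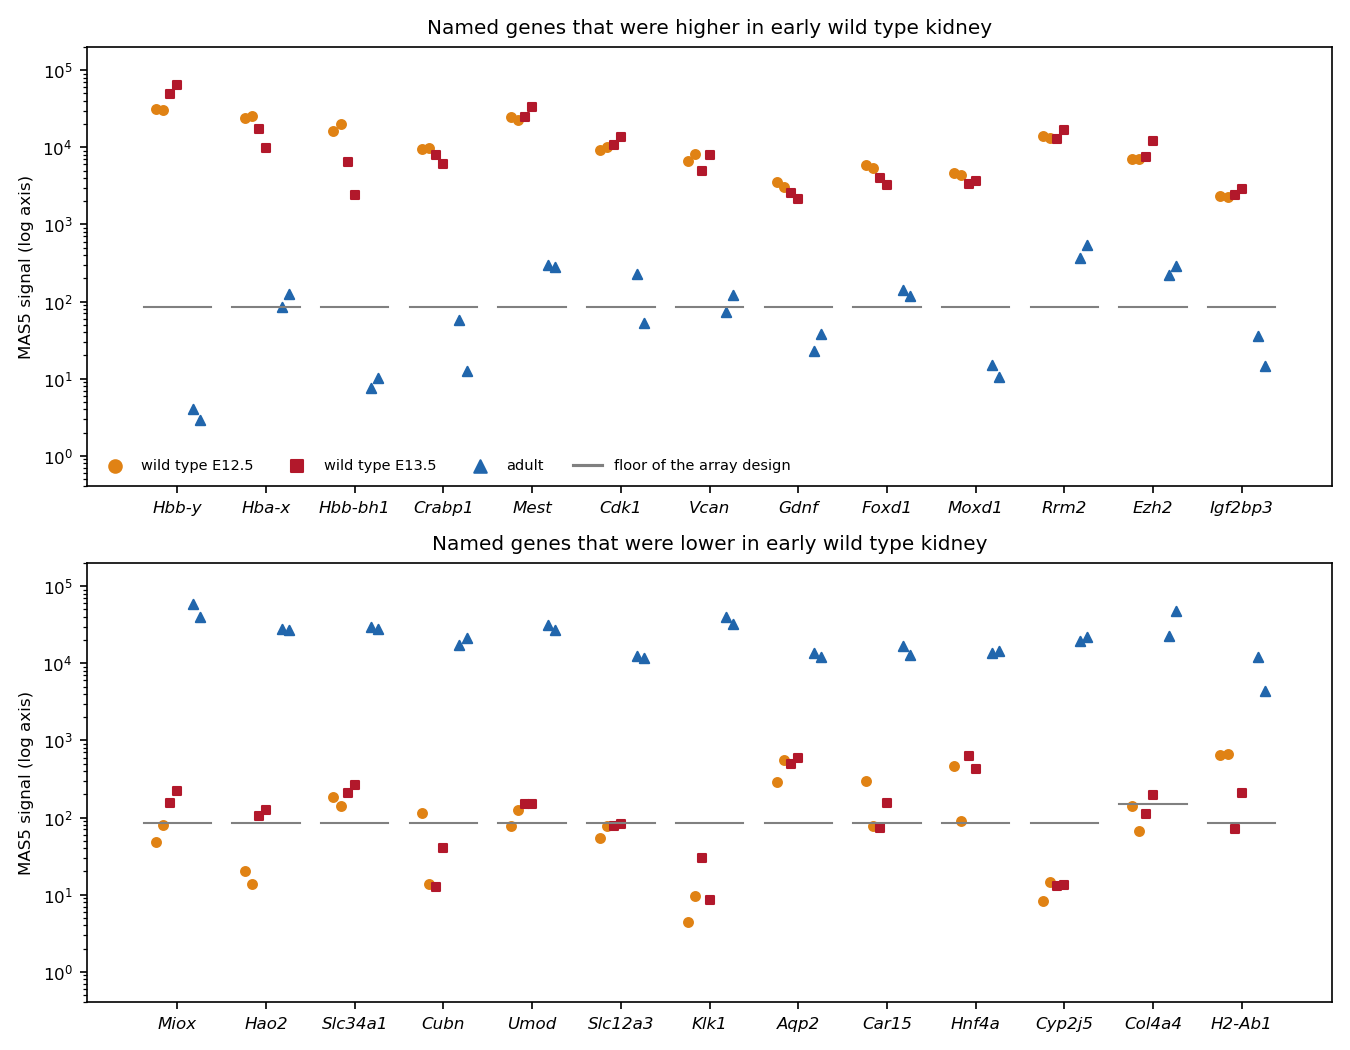
MAS5 signal (log axis) in each early wild type and adult sample for 13 genes that were higher (top) and 13 that were lower (bottom) in early kidneys, with E12.5 samples as orange circles, E13.5 samples as red squares and adult samples as blue triangles. The grey line is the floor of the array each gene was read on. Cdk1, for example, is at 9301 to 13772 in the 4 early samples and at 227 and 52.7 in the adult samples.

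Among hormone genes more were lower than higher. Of 17 tested renal endocrine genes 8 were called lower and 1 higher (median -0.29), and 4 and 0 under the 18S covariate. Kl, the hormone coreceptor klotho, had 27 and 60.7 in E12.5 kidneys and 57.5 and 40.2 in E13.5 kidneys, against 5094 and 8556 in adult kidneys, at least 76.7-fold lower (adjusted p = 4.14e-08). Agt, angiotensinogen, and Agtr1a, the main angiotensin receptor, were at least 25-fold and 10.6-fold lower, whereas Agtr2, the receptor known from embryonic tissue, was the 1 called higher, with 439 and 543 in E12.5 kidneys and 722 and 1331 in E13.5 kidneys, against 6.3 and 18 in adult kidneys (at least 8.04-fold). Esr1, an oestrogen receptor, had 226 to 1220.1 in the 4 early samples, against 4488 and 11549 in adult kidneys (log2 difference -4.04 ± 0.64). Of 19 immediate early and heat shock genes 4 were called higher and 6 lower (median -0.25), near the shares of all genes, and 0 and 3 under the 18S covariate. Ier3, a stress response gene, and the chaperones Hspa1b and Hspa1a, near-identical copies whose probe sets may share signal, were 10.7-fold, 9.16-fold and 6.77-fold lower, and Ier2, an immediate early gene, was 4.97-fold higher.

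Of 20 tested endothelial genes 5 were called higher and 6 lower (median -0.25), near the shares of all genes, and 0 and 1 under the 18S covariate. Ets1, a transcription factor of vessels and mesenchyme, had 4078 and 4574 in E12.5 kidneys and 2556 and 2398 in E13.5 kidneys, against 351 and 520.1 in adult kidneys (7.65-fold higher), while Eng, endoglin, and Plvap, a protein of fenestrated capillaries, were 4.55-fold and 3.56-fold lower. Flt1, a receptor for VEGF, was 3.06-fold lower, but another of its probe sets was called in the other direction, so its direction is not settled. The general endothelial marker Cdh5 had 560.3 and 525 in E12.5 kidneys and 739 and 459.5 in E13.5 kidneys, against 665 and 637 in adult kidneys, groups that overlap.

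Genes of immune cells were lower. Of 16 tested macrophage and leukocyte genes 12 were called lower and 0 higher (median -2.12), and of 14 genes of antigen presentation by the MHC all 14 were called lower (median -3.31). Under the 18S covariate 3 macrophage and 6 MHC genes were called lower. Csf1r, the receptor that macrophages need, had 1433 and 1619 in E12.5 kidneys and 1604 and 1379 in E13.5 kidneys, against 14569 and 11637 in adult kidneys (8.65-fold lower, adjusted p = 4.39e-08), and both groups were above the floor. Cd14, a receptor for bacterial lipid, and C1qa, a complement chain, were 15.9-fold and 9.34-fold lower, and Cd52, a leukocyte surface protein, at least 21-fold. Psmb8, an inducible proteasome subunit, had 18.4 to 72.1 in the 4 early samples, against 7122 and 3264 in adult kidneys (at least 56-fold lower). The class II genes H2-Ab1, Cd74 and H2-Aa were at least 24.5-fold, 20.7-fold and 14.9-fold lower, and H2-Ab1 had 652 and 659 in E12.5 kidneys and 70.7 and 210.1 in E13.5 kidneys, against 11995 and 4411 in adult kidneys. For these genes too strain and stage cannot be told apart. The summed signal of the macrophage list was 6857 to 9319 in the 4 early samples and 54863 and 33154 in adult kidneys.

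Markers of tissues around the kidney moved in both directions. Of 8 tested neuron and neural crest genes 5 were called higher and 0 lower (2 higher under the 18S covariate), and their summed signal was 4035 to 5173 in the 4 early samples and 1623 and 1943 in adult kidneys. Nefl, a neurofilament subunit, had 1086 and 1147 in E12.5 kidneys and 681 and 840.4 in E13.5 kidneys, against 7.5 and 110.1 in adult kidneys, and Nefm, another, was under the floor in both adult samples. Of 7 muscle and cartilage genes 6 were called higher and 0 lower, with a summed signal of 6297 to 8234 in the 4 early samples and 1078 and 1143 in adult kidneys. Col2a1, the collagen of cartilage, had 1002 and 1266 in E12.5 kidneys and 731 and 303 in E13.5 kidneys, against 35.6 and 40.6 in adult kidneys, and Tnnt1, a troponin of slow muscle, had 779 to 1075 in the 4 early samples, against 80.3 and 13.7 in adult kidneys. Of 7 adrenal and gonad genes only Nr5a1, the factor of steroid-making cells, was called, higher with 528 and 450.4 in E12.5 kidneys and 595 and 555 in E13.5 kidneys, against 166 and 75.3 in adult kidneys, and the list summed to 4209 to 4855 in the 4 early samples and 4112 and 2919.8 in adult kidneys. Of 5 fat genes all 5 were called lower (2 under the 18S covariate), with a summed signal of 3278 to 5841 in the 4 early samples and 14474 and 23994 in adult kidneys, and Adipoq, the fat hormone adiponectin, and Cidec, a lipid droplet protein, were under the floor in all 4 early samples. For 1 of the 5 another probe set was called higher. Of 5 liver genes 1 was called lower, the fibrinogen chain Fga, and the summed signal of 1249 to 6179 in the 4 early samples and 4209 and 5080.1 in adult kidneys followed no group. The part of such neighbouring tissue in the lists above was not tested. Xist, read from the inactive X chromosome, had 2188 and 325 in E12.5 kidneys and 302 and 525 in E13.5 kidneys, against 2401 and 2118 in adult kidneys, and the Y-linked Eif2s3y had 3.2 and 638 in E12.5 kidneys and 20.9 and 9.6 in E13.5 kidneys, against 4.5 and 13.6 in adult kidneys. E12.5 replicate 2 was thus the 1 sample of the 6 with Eif2s3y above the floor. The part of sex in the difference between early and adult kidneys was not tested.

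E12.5 alone differed from adult in 10794 probe sets and E13.5 alone in 11097, comparisons that share the adult samples. Between E13.5 and E12.5, 37 of 14128 genes were called (0.262%), 23 higher and 14 lower at E13.5. On 430A both E13.5 arrays were scanned on 1 day and the E12.5 arrays on 2 other days, so there stage and scan day cannot be told apart. Of the probe sets 120 were called, against 0 with only these 4 samples in the limma fit, where 3293 had an unadjusted p under 0.05, and between 3 and 455 with 1 sample left out. No tested gene of any list was among the 37.

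Early kidneys were set beside E16.5, when tubules have formed, as a comparison within embryonic tissue prepared the same way. The 3′ to 5′ signal ratio of Gapdh, read like that of actin, still differed. On 430A it was 3.31 and 4.25 in the E16.5 samples and 1.45 to 2.68 in the early ones. On 430B it was 3.09 and 4.31, against 1.57 to 2.85. What this difference does to the comparison was not tested. On 430A the E16.5 arrays were scanned on the same day as the E13.5 arrays and the E12.5 arrays on 2 other days. For the E12.5 samples stage and scan day therefore cannot be told apart there. On 430B all early and E16.5 arrays were scanned on 1 day. In early against E16.5 kidneys 14.6% of genes were called higher and 13.8% lower. Of all probe sets 8574 were called. Without E16.5 replicate 1 the number of probe sets called was 3049 and without E16.5 replicate 2 it was 4869. The median log2 differences of early minus E16.5 were -1.73 for proximal tubule transporters, -2.74 for endocytosis and brush border genes and -1.28 for the loop and distal tubule, with 21, 16 and 14 members called lower. E16.5 minus adult gave -3.36, -2.13 and -2.55 for the same lists. For replication genes the early minus E16.5 median was 0.66 with 17 called higher and 0 lower. For nephron progenitor genes it was 0.43, with 5 called higher and 2 lower, and E16.5 minus adult gave 2.23. On the floored scale the 5 largest called decreases of early against E16.5 were in Hao2, Hoxd3os1, Kdm6b, Hdc and Slc12a1. Kdm6b, a histone demethylase, had 169.8 to 404 in the 4 early samples, against 259.7 and 218 in adult kidneys, and 13661 and 16529.5 at E16.5. Hoxd3os1, an antisense gene at Hoxd3, had 351 to 710.3 in the 4 early samples, against 522 and 202 in adult kidneys, and 25329 and 33784 at E16.5. Both were thus high at E16.5 alone of the 4 stages, each as read by 1 probe set on 430B. Kdm6b had 2 other tested probe sets and Hoxd3os1 had 1, and their E16.5 values are not given here. Hdc, the enzyme that makes histamine, had 8.5 to 40.6 in the 4 early samples, against 17996 and 12733 in adult kidneys, and 3676 and 4289.8 at E16.5, between both. Actn3, a muscle actinin, had 1529 to 1941 in the 4 early samples, against 83.8 and 179 in adult kidneys, and 28.4 and 22.6 at E16.5.

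**Figure D4:**
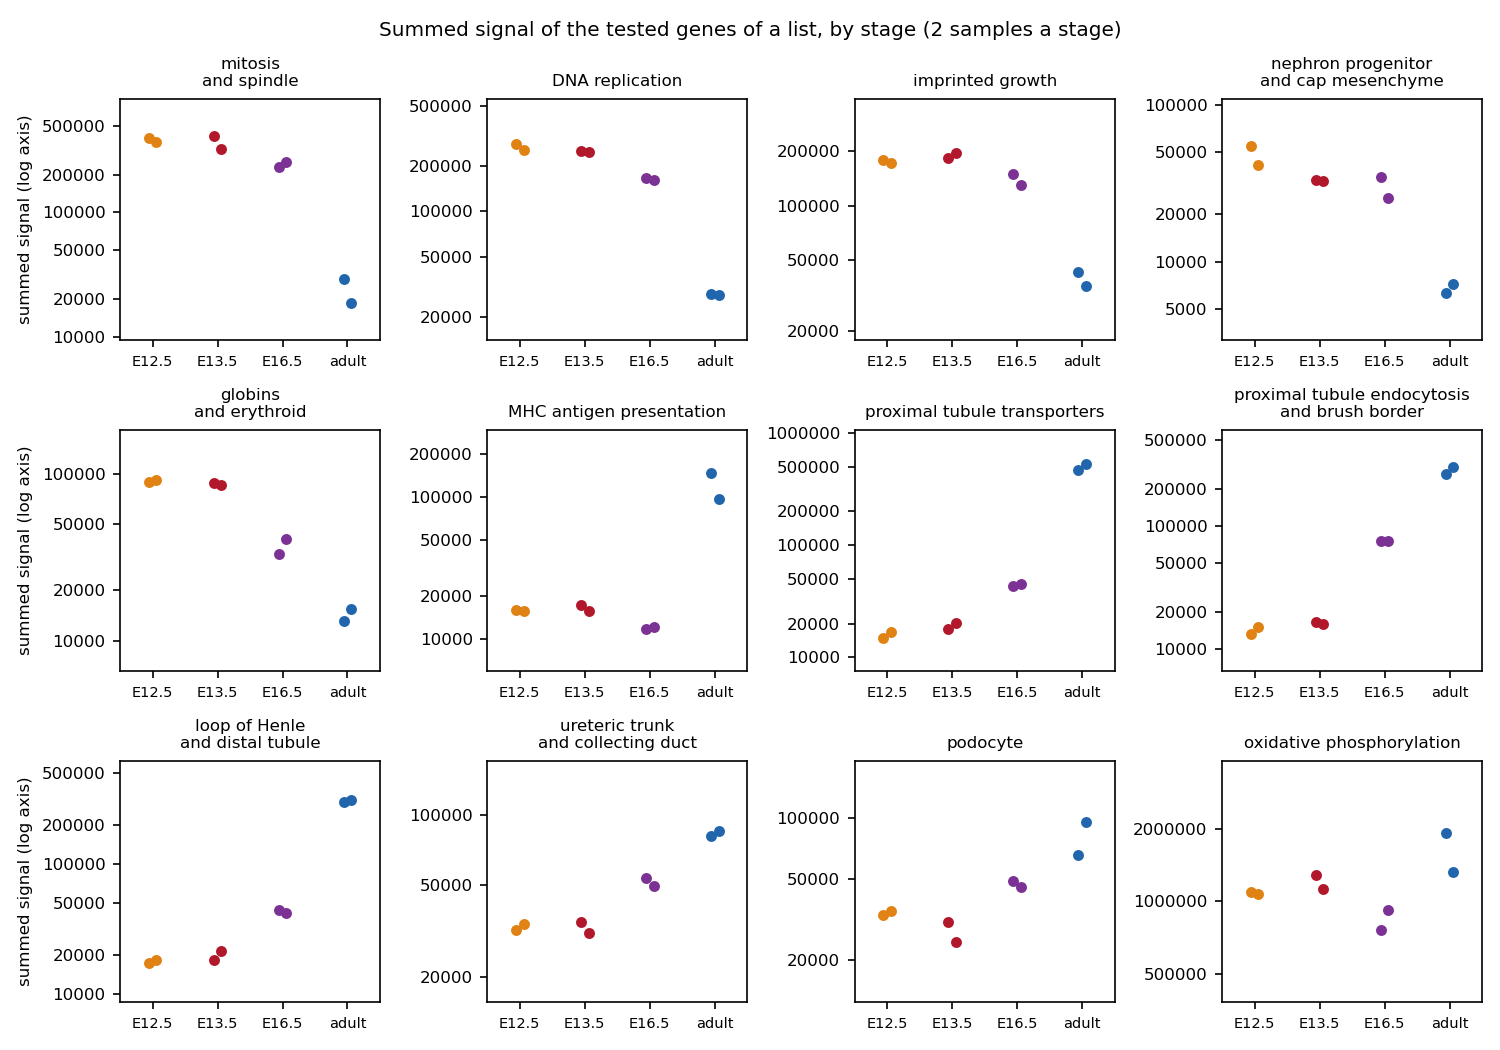
Summed MAS5 signal (log axis) of the tested genes of 12 lists in wild type samples of E12.5, of E13.5 and of E16.5 and in adult samples, 1 point each. The transporter sums were 14984 to 20285 in early, 43398 and 45421 in E16.5 and 467183 and 529858 in adult kidneys, while the sums of the mitosis genes were 325415 to 411612 in early and 29314 and 18610 in adult kidneys.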

How the data were processed

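Total RNA of whole kidneys was read on Affymetrix MOE430A and 430B arrays, 28 arrays from 14 samples, of which 12 arrays belong to the 4 early wild type and 2 adult samples. The deposited values are probe set intensities on a linear scale, made by the authors with MAS5, per the submitters' processing notes, and in the files every array has a trimmed mean of 1499.5 to 1499.8, so all had been scaled alike. All value columns were mapped to samples by their labels.

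Per array design, signals were floored at the 20th percentile and taken to log2. Probe sets whose mean passed the 50th percentile in at least 1 of the 7 groups were kept, 64 control probe sets per design were left out, and so were the 430B values of 100 probe sets that both designs hold. The 30564 remaining were fitted with limma 3.58.1 (R 4.3.3) over all 14 samples with group means, trended eBayes and 7 residual degrees of freedom, with Benjamini-Hochberg adjustment across the probe sets of both designs. Genes were named through GEO's platform annotation, only where a probe set has exactly 1 symbol (20380 probe sets on 430A and 14565 on 430B, against 691 and 245 with several and 1555 and 7605 with none), and read by 1 probe set, 430A before 430B and then the highest mean. More than 1 probe set was called for 2186 genes, and for 102 of them (4.67%) the calls ran both ways.

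Genes named in the text are the 15 largest and 15 smallest called log2 differences without overlap of the groups, up to 4 called members of each list by size, the 5 largest and 5 smallest of the other contrasts, and those said to be chosen after their values were seen; Foxm1, Ret, Cdh5, Ass1, Akr1a1, Hnf4a, Ppargc1a, Hba-a1, Alb, Fga, Xist, Eif2s3y and the single exceptions in a list are of that kind. The members and lists were chosen with earlier results of these data known.

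On simulated data with the same sizes for the early against adult comparison, the fit recovered 79 of 100 4-fold and 19 of 100 2-fold changes on 430A, and 38 and 2 of 100 on 430B, with 5 of 14376 and 2 of 15788 unchanged probe sets called. The changed share there was far below the 40.2% called in the data, and adjustment was within each design. Since fewer changes make the adjusted threshold stricter, these recovery counts do not measure the power of the comparison itself. The number of arrays limits the precision. Replicate numbers did not pair the samples. Alternatives covered normalization, centring, floor, filter, variance model, adjustment, fold, replicate block, scan day, RNA quality covariates, the samples fitted and each sample left out. Promoters are those of RefSeq (GRCm38.p6). Python 3.11.15 with pandas 2.3.3, numpy 2.4.6 and matplotlib 3.10.9 was used for the rest.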

Additional observations from a re-analysis of the deposited data

Results flagged for a closer look

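The early group joined a pair of stages, and 10 genes were singled out because their difference against adult kidneys was not the same at both, by a limma test of the log2 difference E13.5 minus E12.5 itself with Benjamini-Hochberg adjustment. They are the 5 largest called differences in each direction. The gene 4933438K21Rik had signals of 3831 and 7484 in E13.5 kidneys and 148 and 94.7 in E12.5 kidneys, a difference of 5.18 (adjusted p = 0.000416). Kcnma1, a potassium channel, had 902 and 3140.4 in E13.5 kidneys, both above its E12.5 values, a difference of 3.51. For 1700054O19Rik the signals were 1235 and 2006 in E13.5 kidneys and 141 and 134 in E12.5 kidneys, a difference of 3.41. BC016548 had 837 and 791 in E13.5 kidneys and 36.8 and 66.8 in E12.5 kidneys, a difference of 3.24. Slc35f1, of a family of nucleotide sugar transporters, had 1147 and 1604 in E13.5 kidneys and 85.3 and 53.4 in E12.5 kidneys, a difference of 3.19. In the other direction Fxr2, an RNA binding protein, had 76.7 and 43.9 in E13.5 kidneys and 509 and 657 in E12.5 kidneys, a difference of -2.75. Tekt5, a protein of sperm tails, had 70.7 and 73.4 in E13.5 kidneys and 1069 and 648 in E12.5 kidneys, a difference of -2.49. Cpa1, a carboxypeptidase of the pancreas, had 266 and 119.8 in E13.5 kidneys and 936 and 975 in E12.5 kidneys, a difference of -2.42. Ptpn23, a phosphatase-like protein of endosomes, had 232 and 37.1 in E13.5 kidneys and 794 and 663 in E12.5 kidneys, a difference of -2.36. Zfp746, a zinc finger protein, had 159.8 and 112 in E13.5 kidneys and 659 and 709 in E12.5 kidneys, a difference of -2.35. The calls between the 2 early stages rest on the spread borrowed from the other samples of the series: a limma fit of only these 4 samples called 0 probe sets, with 3293 at an unadjusted p under 0.05. BC016548, Fxr2, Cpa1, Ptpn23 and Zfp746 were read on 430A, where the E13.5 and E12.5 arrays were scanned on different days, so for them stage and scan day cannot be told apart. The cause of these differences was not tested.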

How the results depend on the processing

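Strain, RNA isolation and RNA input change with the groups and cannot be told apart from stage, and the adult group holds 2 samples. Of the 12299 probe sets called between early and adult kidneys, 4350 also differed at least 4-fold (2208 higher, 2142 lower). With the 18S signal as a covariate, chosen after seeing the data, 2421 were called (1202 higher, 1219 lower). Leaving out 1 sample at a time gave 9948 to 12091 (5754 to 6935 higher, 4194 to 5156 lower). The other alternatives gave 9306 to 12390, among them 12031 with the replicate block (6998 higher, 5033 lower), although the numbers did not pair the samples (correlations of same-numbered deviations between -0.008 and 0.281). The block changed the direction or call of no named gene in the comparison with adult, and moved 1 list count by over 1.5 times, erythroid genes lower, which was 1 with it and 0 without.

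The difference between E13.5 and E12.5 (120 probe sets) depended on most choices. It was 78 after quantile normalization, 71 with an offset in place of the floor, 306 with the floor at the 40th percentile, 346 without a filter, 37 with the filter at the 70th percentile, 220 without the trend, 72 with the replicate block and 52 with the 18S covariate. Only the samples compared gave 0 (3293 at an unadjusted p under 0.05 by limma), and only the 8 wild type samples gave 2. Leaving out 1 sample gave 3 to 455: 9 and 3 without E12.5 replicate 1 or 2, and 455 and 21 without E13.5 replicate 1 or 2. Early against E16.5 kidneys (8574) gave 2061 at 4-fold, 981 with the 18S covariate and 3049 to 8475 with 1 sample left out. The signs of 2 named genes, neither of them a list member, turned: Slc35f1 was at 0.17 with E13.5 alone against adult, and Ptpn23 at -0.14 with scan day as a fixed block, a fit that on 430A also drops E12.5 (E13.5 alone without the block gave 0.07). The cause was not tested. With the 18S covariate 34 named genes were no longer called, and none of them turned in sign. The log2 difference of some was larger in that fit, such as Hoxd13 (2.91 against 2.65). Of others it was smaller, such as Rpl14 (0.745 against 2.20). The lost calls alone therefore do not tell how far a difference moves with 18S.

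The 18S covariate moved 37 of the 74 list counts by over 1.5 times, and their values stand beside the lists. Leaving out 1 sample moved these beside those given above: endothelial genes higher were 3 without adult replicate 1 (5 with it), and immediate early and heat shock genes higher were 2 without either adult sample (4 with both). Only the samples compared gave 16 ribosomal protein genes higher and 13 oxidative phosphorylation genes lower, E12.5 alone gave 11 ribosomal protein genes higher, and the filter at the 70th percentile, which tests fewer genes, gave 9 intercalated cell genes lower. Scan day as a fixed block, with E12.5 dropped on 430A because the block cannot be fitted with it, gave 5 citric acid cycle and 3 fat genes lower (6 and 5 with E13.5 alone and no block). Counts of 3 or fewer moved under several alternatives.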

Other observations

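The array itself read many genes with several probe sets. Of the 73 named and called genes with other tested probe sets, 60 had another one called in the same direction, and 1, Flt1, had one called in the opposite direction. The rest, among them AW551984, Cenpa, Eya1, Meis1, Etv4, Adamts18, Aqp4, Ptpro and Hoxc5, had no other one called. Among all list members, 1 called gene each of the proximal tubule transporter, tubule transcription factor, macrophage and fat lists also had a probe set called in the opposite direction. Of the 6939 called genes, 6708 had early and adult samples that did not overlap. Reading each gene by its probe set of the highest mean on either array gave 6786 called genes.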
